A study of Danio rerio with 6 samples.

Results

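The genes described here are 4 receptor genes and 6 ligand genes of the Notch pathway in ALL tumours of zebrafish, where ALL is acute lymphoblastic leukaemia, which arises from lymphocyte precursors. Their members were picked by gene symbol, as notch1a, notch1b, notch2, notch3, jag1a, jag1b, dla, dlb, dlc and dll4, and all 10 were among the 29095 genes listed in the count files. RNA came from 3 tumours, numbered 1404, 1279 and 1314, of zebrafish of strain CG2, and no transgene, treatment or age is given for any of them in the sources used here. The side population (SP) of each tumour, by convention the fraction that pumps out a DNA-binding dye, was compared with the non-side population (nonSP) of the same tumour. Each fraction of each tumour gave 1 library, so that n = 3 in each group.

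Notch receptors are single-pass membrane proteins that are cut when they bind a Jagged or Delta ligand on a neighbouring cell, and the freed inner part enters the nucleus and activates genes together with the DNA-binding protein RBPJ. In mammals the pathway commits blood progenitors to the T lineage, and activating NOTCH1 mutations are common in human T cell ALL. Zebrafish carry duplicates of several of these genes, such as notch1a and notch1b, or jag1a and jag1b.

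Total counts ranged from 45121124 to 55981608 in SP and from 30213658 to 62398607 in nonSP libraries. Values are CPM, that is counts scaled to a common library size with TMM factors, which were 1.21 to 1.76 in SP and 0.587 to 0.817 in nonSP, and 3 values in a row belong to tumours 1404, 1279 and 1314 in that order. Lymphocyte markers differed between the tumours. The SP libraries held 1608, 2 and 1608 counts of the B cell transcription factor gene pax5, against 1086, 2 and 1486 in the nonSP libraries. The T cell coreceptor gene cd8a had 63, 2257 and 0 counts in the SP libraries, against 26, 447 and 1 in the nonSP libraries. Not every listed marker kept these orders. The T cell gene itk was at 3.08, 9.26 and 3.38 CPM in SP and at 5.57, 9.03 and 24.8 CPM in nonSP. Of 10 tested T cell genes runx3 rose (4.94-fold) and rag2 fell. Of 10 tested B cell genes blnk rose (2.48-fold, with 0 counts in both fractions of tumour 1279) and rag2, which is on both lists, fell. Markers of other cell types also differed between the fractions, and their part in the results below was not tested. Blood vessel cells themselves use Notch receptors and ligands. Of 19 endothelial genes listed, 8 were tested, of which sox7, stab2 and flt4 rose (5.24-fold, 5.17-fold and 8.50-fold) and tek fell. The nonSP counts of flt4 were 0, 1 and 3 and those of stab2 were 29, 38 and 7, so both needed their SP counts to enter the test. The genes kdrl, cdh5, pecam1 and tie1 had between 0 and 2 counts in every library. The endothelial sums were 34.6, 49.6 and 9.71 CPM in the SP libraries and 37.7, 35.6 and 5.69 CPM in the nonSP libraries. Of 6 tested muscle genes 3 rose (ttna, neb and actn3b), and the 14 listed summed to 53.5 to 87.6 CPM in SP, against 8.43 to 37.7 CPM in nonSP. The muscle genes acta1a, acta1b and myhz2 did not pass, at log2 fold changes of -0.13, -0.87 and 2.06. Counts of ckma, ckmb, tnnt3a, mylpfa and myhz1.1 were between 0 and 9 in every library. Of 3 tested fibroblast genes dcn and lum rose and the collagen gene col1a1b did not pass. The 10 listed summed to 8.96 to 27.3 CPM in SP, against 4.63 to 5.40 CPM in nonSP, but postnb, fbln1, sparc and pdgfra had between 0 and 7 counts in every library. Of 3 tested neural genes olig2 and nova2 rose. The 9 listed summed to 13.7 to 20.8 CPM in SP, against 6.54 to 12.6 CPM in nonSP, but elavl3, neurod1, mbpa, syt1a and snap25a had between 0 and 5 counts in every library. Of 6 tested myeloid genes the neutrophil peroxidase gene mpx rose (10.1-fold) and cebpa fell, and the 14 listed summed to 19.5 to 106 CPM in SP, against 44.1 to 117 CPM in nonSP. Of 5 tested epithelial genes krt18 and tp63 rose. The 10 listed summed to 16.1 to 58.3 CPM in SP, against 8.52 to 125 CPM in nonSP. Of these agr2, which did not pass, held 53.9, 13.6 and 3.38 CPM in SP and 124, 6.83 and 3.18 CPM in nonSP. Counts of epcam, cdh1, krt4, krt5 and cldn7b were between 0 and 6 in every library. Of 4 tested erythroid and thrombocyte genes slc4a1a rose (3.03-fold). The others, alas2, gp9 and thbs1b, did not pass, at log2 fold changes of 0.68, 0.27 and -0.31. The untested hbaa1 had 0, 3 and 0 counts in the SP libraries, against 21, 9 and 0 in the nonSP libraries. Counts of gata1a, itga2b, mpl and f5 were between 0 and 3 in every library. Among the marker genes that rose, dcn, lum, olig2, mpx, tp63, krt18 and blnk also had enough counts in too few nonSP libraries to be tested without their SP counts. Beside these marker calls, 13.0% of all tested genes rose and 9.40% fell.

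Of the 8 receptor and ligand genes with enough counts to test, 5 rose in SP relative to nonSP of the same tumour, and 0 fell. Those that rose were both abundant receptor genes, notch1a and notch2, both jag1 copies and the Delta gene dlb, by 2.16-fold to 4.18-fold. Of these, jag1b and dlb had too few nonSP counts to be tested without their higher SP counts. Each of the 5 had higher CPM in SP in all 3 tumours, as did 31.1% of all tested genes, but for jag1b in tumour 1279 the difference was within counting error. The Delta genes dla, dlc and dll4 did not pass the test, and notch1b and notch3 had too few counts. Each gene was tested by quasi-likelihood in edgeR, blocking on tumour, and passed where its p, adjusted by Benjamini-Hochberg over all 15770 genes tested, was below 0.05. In it 22.4% of all tested genes passed, 13.0% higher in SP and 9.40% lower. The calls concern differences within a tumour: without the block edgeR called 0 of the 8 genes and 0 genes in all, with 1 of the 8 and 1251 of all genes at an unadjusted p below 0.05. Without tumour 1404, 1279 or 1314, 3 of 9, 4 of 9 or 1 of 8 tested receptor and ligand genes rose. Of all genes tested there, 1247 of 15887, 1396 of 16672 or 1141 of 16296 rose, and 18.5%, 12.4% or 11.3% passed in either direction. With RLE factors 4 of the receptor and ligand genes rose (10.8% of all genes), and with a stricter filter 3 of the 4 still tested rose (17.2% of all genes). Both fractions are bulk samples, so a change in the share of cells that express a gene and a change in RNA per cell cannot be told apart.

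**Figure D1:**
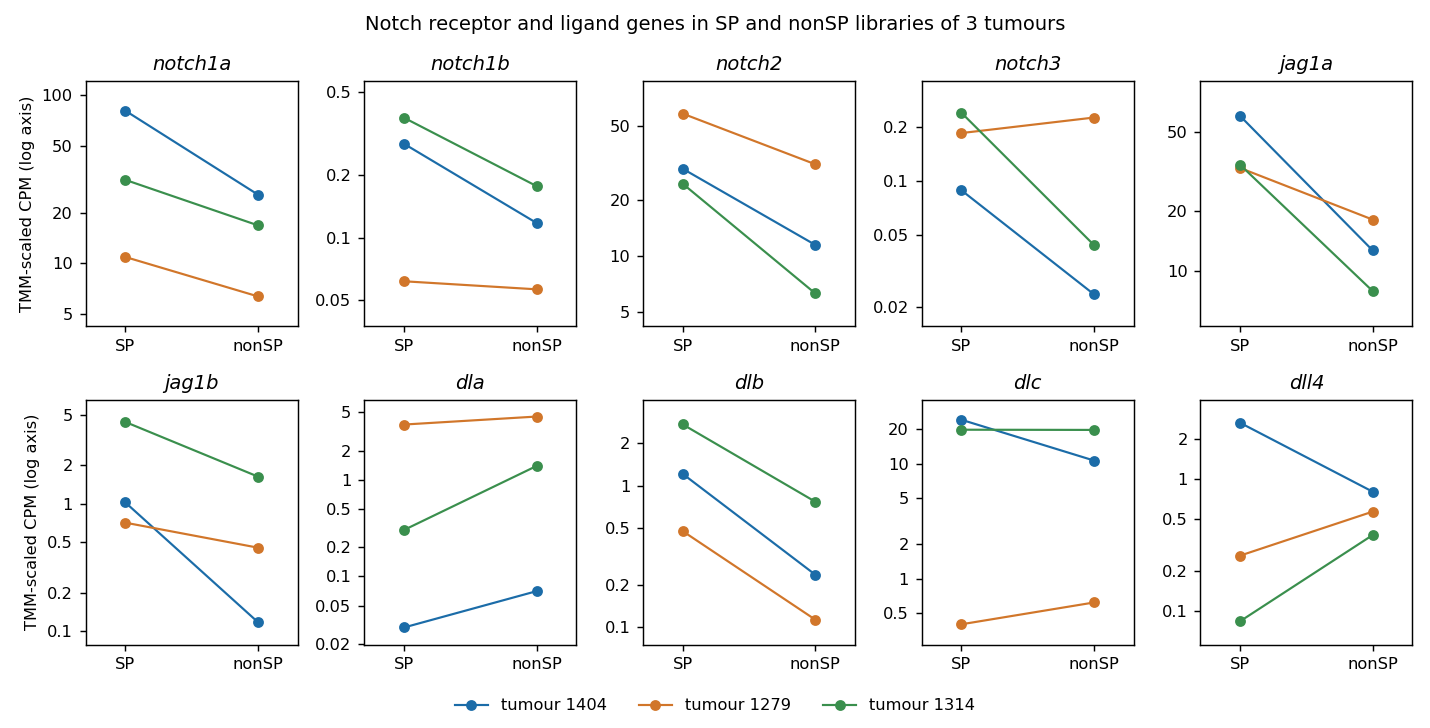
TMM-scaled CPM (log axis, a separate range in each panel) of the 10 receptor and ligand genes in SP and nonSP libraries, with 1 line per tumour. Lines of notch1a, notch2, jag1a, jag1b and dlb are higher at SP in all 3 tumours, those of dla are lower at SP in all 3, and those of dlc and dll4 run in different directions.

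The receptor gene notch1a, a zebrafish counterpart of mammalian NOTCH1, was present at 80.9, 10.9 and 31.4 CPM in SP and at 25.7, 6.38 and 16.9 CPM in nonSP. It was higher in SP in each tumour, but the groups overlapped because tumour 1279 was low in both fractions. The log2 fold change was 1.11 ± 0.37 (SE, n = 3, edgeR adjusted p = 0.0334). This call ended in edgeR without tumour 1404 (0.73, adjusted p = 0.189), without tumour 1279 (1.29, 0.0888), without tumour 1314 (1.23, 0.110) and with RLE factors (1.03, 0.0527).

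The second abundant receptor gene, notch2, was present at 29.6, 58.7 and 24.5 CPM in SP and at 11.5, 31.3 and 6.27 CPM in nonSP. The order of the tumours was not that of notch1a: tumour 1279 had the highest notch2 level and the lowest notch1a level in both fractions. With 1 library per tumour and fraction, differences between tumours have no replicate error and were not tested. The log2 fold change between fractions was 1.41 ± 0.38 (adjusted p = 0.00949 in edgeR), and within the 3 tumours log2 ratios were 1.36, 0.91 and 1.96. It did not pass without tumour 1314 (1.14, adjusted p = 0.139).

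The other receptor genes were counted rarely. The second NOTCH1 counterpart, notch1b, had counts of 19, 4 and 36 in SP against 5, 1 and 8 in nonSP. For notch3 the counts were 6, 12 and 23 in SP against 1, 4 and 2 in nonSP. For notch3 in tumour 1314 the SP to nonSP fold was 5.44, with a 95% interval from counting error alone of 1.34 to 47.6. In the other pairs the intervals of notch1b and notch3 included no difference, so that none was detectable at this depth. Within the RefSeq annotation of another zebrafish assembly, notch1b and notch3 lie over other genes, as does dla, and without a stated strand setting reads of such genes cannot be assigned with certainty.

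The make-up of the receptor counts differed between the fractions in opposite directions in tumours 1404 and 1314. Of all counts on the 4 receptor genes, notch1a took 73.0%, 15.6% and 55.5% in SP and 68.9%, 16.8% and 72.2% in nonSP. Exact 95% binomial intervals, which cover counting error only, did not overlap in tumour 1404 (72.0% to 74.0% in SP, 66.5% to 71.1% in nonSP) or in tumour 1314 (54.2% to 56.9% in SP, 69.4% to 74.9% in nonSP). They overlapped in tumour 1279 (14.6% to 16.7% in SP, 14.1% to 19.9% in nonSP). The remainder was notch2, with notch1b and notch3 each below 1% in every library. Per notch2 count there were 2.74, 0.186 and 1.28 notch1a counts in SP, against 2.24, 0.204 and 2.69 in nonSP. These ratios within a library do not depend on the scaling between libraries, although gene length also enters them. The SP minus nonSP difference of the notch1a share was 4.13, -1.17 and -16.7 percentage points, with no common direction (mean -4.58 ± 10.8, SD, n = 3 pairs; two-sided exact permutation p = 0.75, where 0.25 is the smallest p that 3 pairs allow).

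**Figure D2:**
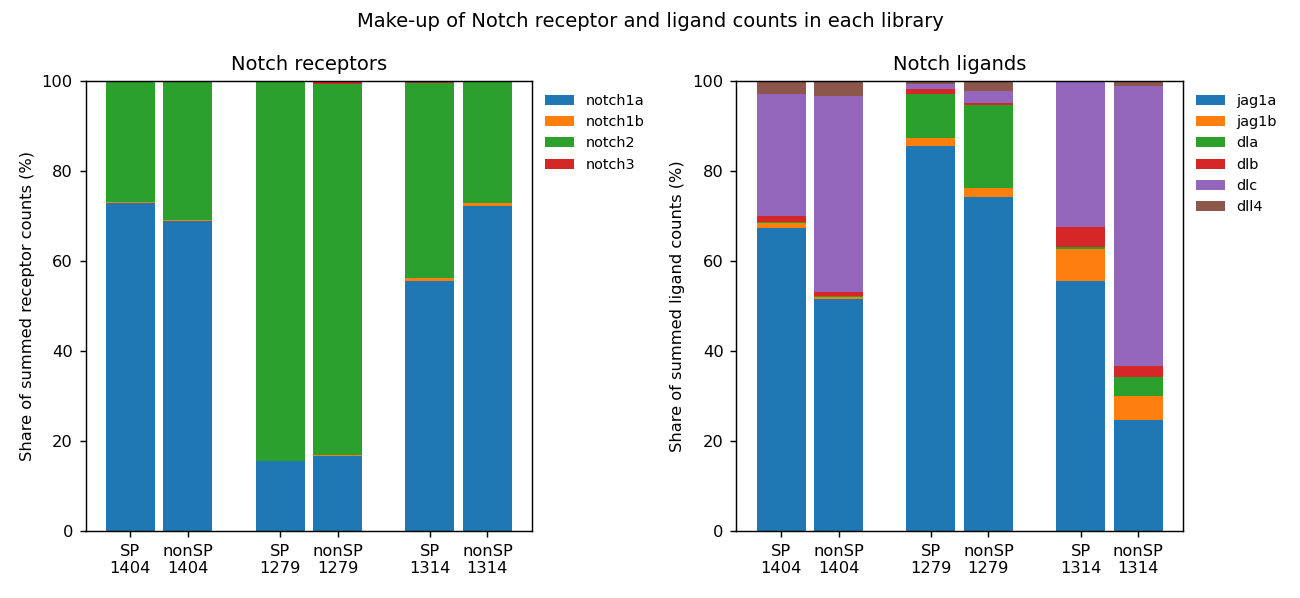
Share of summed counts (%) held by each of the 4 receptor genes (left) and 6 ligand genes (right) in the SP and nonSP library of each tumour. notch2 takes 84.0% and 82.4% of receptor counts in SP and nonSP of tumour 1279, and the jag1a share of ligand counts is higher in SP than in nonSP in each tumour.

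Among the ligand genes, jag1a separated the fractions most clearly. It encodes a Jagged ligand, the class with a cysteine-rich region that Delta ligands lack. It was present at 60.3, 33.0 and 34.2 CPM in SP and at 12.7, 18.1 and 7.90 CPM in nonSP. It was the only one of the 10 genes whose SP values all lay above all of its nonSP values, which 8.64% of all tested genes did. The log2 fold change was 1.75 ± 0.39, or 3.37-fold (edgeR adjusted p = 0.00307). It passed in all 10 alternatives that kept the tumour block, with log2 fold changes from 1.38 to 2.82. The ratio was smaller in tumour 1279, at 1.82-fold (1.62 to 2.05 from counting error) against 4.76-fold and 4.33-fold in tumours 1404 and 1314.

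The second Jagged copy, jag1b, had 69, 46 and 420 counts in SP against 5, 8 and 74 in nonSP. The SP levels were 1.02, 0.709 and 4.38 CPM, against 0.117, 0.451 and 1.63 CPM in nonSP, so that tumour 1314 was highest in both fractions and the groups overlapped. In tumour 1279 the SP to nonSP fold of jag1b was 1.57, with a counting interval of 0.734 to 3.85 that included equality. Its log2 fold change was 1.66 ± 0.56 (adjusted p = 0.0331 in edgeR). It entered the test through its SP counts, as its nonSP counts alone were too few. The call ended without tumour 1404 (1.05, adjusted p = 0.198) and without tumour 1314 (1.85, 0.139). Per jag1b count there were 59.0, 46.5 and 7.81 jag1a counts in SP, against 108, 40.1 and 4.84 in nonSP, lowest in both fractions of tumour 1314.

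The Delta genes did not move as 1 group. dlb rose by 2.06 ± 0.57 (edgeR adjusted p = 0.0127), which is 4.18-fold and the largest fold change among the 8 tested genes. Its counts were 82, 31 and 261 in SP against 10, 2 and 35 in nonSP, or 1.22, 0.478 and 2.72 CPM in SP and 0.235, 0.113 and 0.772 CPM in nonSP. Its nonSP counts alone were too few for the test, so it entered through its SP counts. Its log2 ratios, which use a prior count of 2, were 2.21, 1.79 and 1.77. From the counts alone its folds were 5.18, 4.24 and 3.53. Their counting intervals were 2.68 to 11.2, 1.08 to 36.5 and 2.47 to 5.17, too wide to show how alike the tumours were. The SP value of tumour 1279 lay below the nonSP value of tumour 1314. The call ended without tumour 1314 (2.26, adjusted p = 0.0762).

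dla, a zebrafish deltaA gene best known from the embryonic nervous system, was the member with lower CPM in SP in all 3 tumours. It was present at 0.0297, 3.73 and 0.303 CPM in SP and at 0.0705, 4.51 and 1.39 CPM in nonSP. Its counts in tumour 1404 were 2 in SP and 3 in nonSP, and tumour 1279 held most of its counts. The log2 fold change of -1.19 ± 0.57 did not pass (edgeR adjusted p = 0.134, unadjusted p = 0.0481), and 24.0% of all tested genes had lower CPM in SP in 3 of 3 tumours. In tumour 1314 alone the SP to nonSP fold was 0.218, with a counting interval of 0.135 to 0.343.

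dlc, a deltaC gene, did not differ in 1 direction between the fractions. It was present at 24.2, 0.401 and 19.8 CPM in SP and at 10.7, 0.621 and 19.7 CPM in nonSP, low in both fractions of tumour 1279. Between fractions it stood at 0.30 ± 0.42 (adjusted p = 0.646 in edgeR), and its log2 ratios in the 3 tumours were 1.18, -0.59 and 0.01. Only in tumour 1404 did the counting interval of its fold (2.04 to 2.52) exclude equality. Tumour 1279 thus had the lowest dlc and the highest dla level in both fractions. These orders stand beside the pax5 and cd8a counts given above, and with 3 tumours no relation between them was tested.

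dll4, a Delta gene with a known part in vessels and, in the mouse, in the thymus, differed in direction between tumours. It was present at 2.65, 0.262 and 0.0835 CPM in SP and at 0.799, 0.564 and 0.375 CPM in nonSP. Its SP to nonSP fold was 3.32 in tumour 1404 (counting interval 2.29 to 4.95) and 0.223 in tumour 1314 (0.0831 to 0.544), so that both differences exceeded counting error in opposite directions. The difference between tumours was not tested, since each has 1 pair. Over the 3 pairs the log2 fold change was -0.34 ± 0.70 (edgeR adjusted p = 0.765), and it was -1.72 without tumour 1404 (adjusted p = 0.160).

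**Figure D3:**
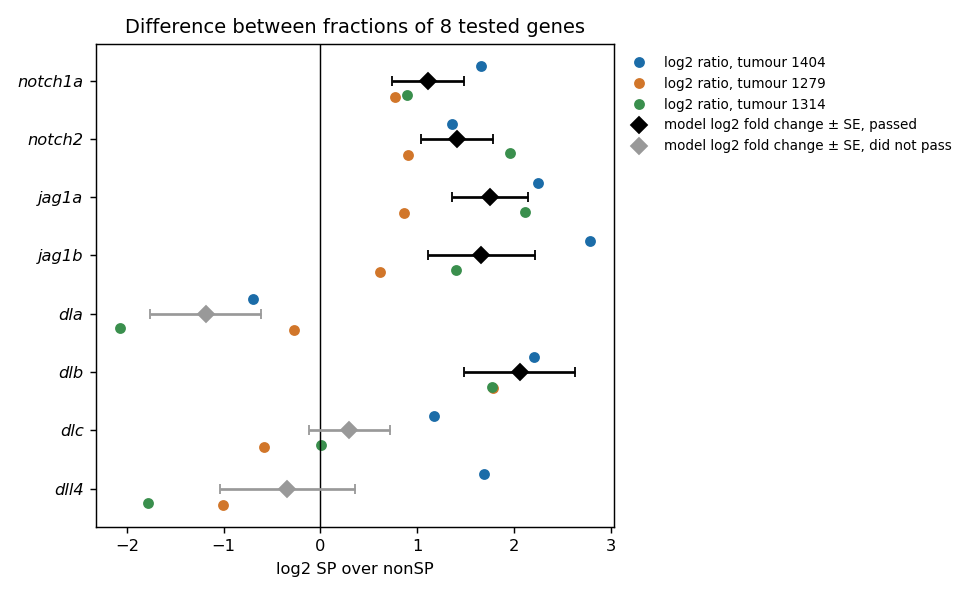
Log2 SP over nonSP of the 8 tested receptor and ligand genes, with the edgeR log2 fold change and its SE as diamonds (black where it passed, grey where not) and the ratio of each tumour as coloured points. The 5 genes that passed have all 3 tumours above 0, while dlc and dll4 have tumours on both sides and dla has all 3 below 0.

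Among the ligand counts, the shares of jag1a and dlb were higher in SP in all 3 tumours, and those of dla, dlc and dll4 were lower. Of all counts on the 6 ligand genes, jag1a took 67.4%, 85.5% and 55.6% in SP and 51.5%, 74.3% and 24.8% in nonSP, and in each tumour the exact 95% intervals of the fractions did not overlap. The mean difference was 19.3 ± 10.2 percentage points (SD, n = 3 pairs; two-sided exact permutation p = 0.25, the smallest possible, and 0.417 after Benjamini-Hochberg adjustment over the 10 shares). The dlc share came to 27.1%, 1.04% and 32.2% in SP, against 43.5%, 2.55% and 62.1% in nonSP, a mean difference of -15.9 ± 14.2 percentage points with the same exact permutation p of 0.25. Its intervals overlapped in tumour 1279 (0.680% to 1.52% in SP, 1.28% to 4.51% in nonSP). Mean differences of dla, dlb and dll4 were -4.32, 1.06 and -0.99 percentage points, each with that exact permutation p. The jag1b share had no common direction. Per jag1a count there were 0.401, 0.0122 and 0.579 dlc counts in SP, against 0.844, 0.0343 and 2.50 in nonSP. Summed over the genes of each class, receptors reached 111, 69.9 and 56.6 CPM in SP and 37.3, 37.9 and 23.3 CPM in nonSP. Ligands summed to 89.5, 38.6 and 61.5 CPM in SP and to 24.6, 24.4 and 31.8 CPM in nonSP. Neither sum overlapped between the fractions, but the sums hold the genes already called higher above and are no separate result. Among all tested genes taken singly, 8.64% had SP values all above their nonSP values.

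The scaling between libraries set the size of the fold changes and CPM differences, but not of the shares and ratios within a library. With library totals in place of TMM factors, the median log2 fold change over the whole table moved by 1.07, to 1.15, and 50.8% of genes were called higher and 1.76% lower. A change of factors shifts all genes by nearly the same amount, so distances from that median are kept by construction and are no check of the members: notch1a, notch2, jag1a, jag1b and dlb stood 1.03, 1.33, 1.66, 1.57 and 1.97 above it with TMM factors and 1.03, 1.33, 1.67, 1.58 and 1.94 above it with library totals. dla stood at -1.27 relative to the median with TMM factors and at -1.21 with library totals. dlc passed with library totals (1.34, edgeR adjusted p = 0.00649), where the median of all genes was itself 1.15. dll4 was 0.70 there (edgeR adjusted p = 0.395), which was -0.45 relative to the median, against -0.43 with TMM factors.

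**Figure D4:**
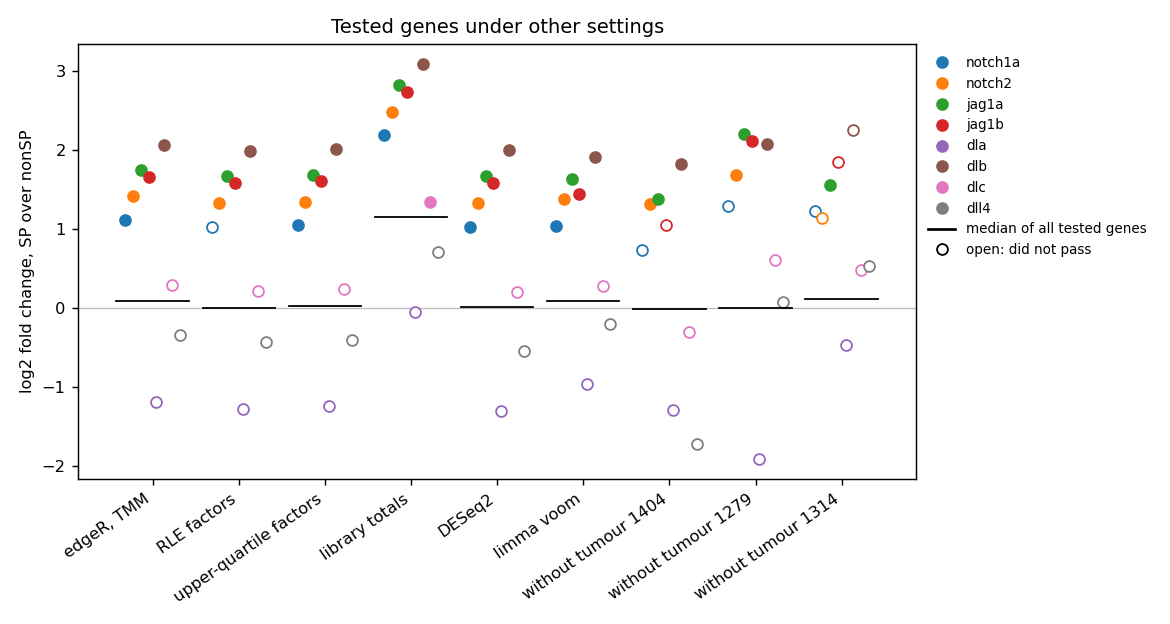
Log2 fold change (SP over nonSP) of the 8 tested genes under 9 settings, with filled points where the adjusted p was below 0.05 and black lines at the median of all tested genes. With library totals all points and the median are shifted up together, and leaving out tumour 1314 leaves jag1a as the only filled point.

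Genes elsewhere in the pathway were examined in 8 lists of 122 symbols, of which 104 were listed and 82 tested. Of these 16 rose (19.5%) and 5 fell (6.10%), with a median log2 fold change of 0.53, against 13.0% higher, 9.40% lower and a median of 0.09 among all tested genes. Among those that rose, neurl1b, neurl1aa and aak1a had too few nonSP counts to be tested without their SP counts. The share that rose is thus partly set by the filter. Without tumour 1404, 7 of the pathway genes rose and 9 fell, or 16 in all, where 18.5% of all tested genes passed. Without tumour 1279, 6 rose and 3 fell (12.4% of all genes), without tumour 1314, 8 rose and 3 fell (11.3%). Scaling by library totals gave 52 higher and 1 lower (50.8% and 1.76% of all genes). Without the tumour block 0 were called, with 6 at an unadjusted p below 0.05.

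Outside the 6 ligand genes above, jag2b, another Jagged gene, rose by 1.60 ± 0.40 (edgeR adjusted p = 0.00602). It was present at 21.5, 25.6 and 21.0 CPM in SP and at 3.55, 13.0 and 8.78 CPM in nonSP, without overlap, and missed the threshold without tumour 1404 (1.01, adjusted p = 0.0545). dld, a deltaD gene, had counts of 11, 279 and 9 in SP against 3, 56 and 6 in nonSP and stood at 0.36 ± 0.58 (edgeR adjusted p = 0.689). As with dla, most of its counts were in tumour 1279.

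Among ubiquitin ligases that promote ligand uptake, 2 of 3 tested genes rose (66.7%, against 13.0% of all tested genes). The Neuralized gene neurl1b had the largest change of all pathway genes examined, 3.34 ± 0.58 (edgeR adjusted p = 0.000343), from 528, 140 and 128 counts in SP against 17, 11 and 4 in nonSP. It too had too few nonSP counts to be tested without its SP counts, as did neurl1aa (49, 4 and 80 counts in nonSP). neurl1aa rose by 1.44 ± 0.52 (adjusted p = 0.0479 in edgeR), a call lost without tumour 1279 (1.76, adjusted p = 0.0503), without tumour 1314 (0.79, 0.558), and with RLE factors (0.0648), upper-quartile factors (0.0667) or DESeq2 (0.0539). mib1, the Mindbomb ligase gene required for Notch signalling in zebrafish embryos, stood at -0.17 ± 0.39 (edgeR adjusted p = 0.798).

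Among 10 tested genes of receptor maturation and sugar transfer, rfng rose (10%, against 13.0% of all tested genes) and 9 did not pass. rfng, a Fringe glycosyltransferase gene, had a log2 fold change of 1.70 ± 0.51 (edgeR adjusted p = 0.0190), which missed the threshold without tumour 1404 (0.96, adjusted p = 0.206) and without tumour 1279 (1.93, 0.0540). pofut1, whose enzyme adds fucose to the receptor, stood at 0.87 ± 0.51 and furina, a Furin protease gene, at 0.73 ± 0.38 (edgeR adjusted p = 0.228 and 0.168).

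Of 8 tested protease genes that cleave the bound receptor, 2 rose and 1 fell (25% and 12.5%, against 13.0% and 9.40% of all tested genes). adam17a, a sheddase gene, and aph1b, for a subunit of gamma-secretase, rose by 1.22 ± 0.37 and 1.40 ± 0.41 (edgeR adjusted p = 0.0197 and 0.0166). adam10b, a second sheddase gene, was lower in SP (log2 fold change -1.36 ± 0.42, adjusted p = 0.0217 in edgeR). Its paralogue adam10a stood at 1.02 ± 0.37 and just missed the threshold (edgeR adjusted p = 0.0515). It was named after its value was seen. In edgeR without tumour 1404 aph1b did not pass (0.91, adjusted p = 0.141). Without tumour 1279 aph1b (1.51, 0.0702), adam17a (1.18, 0.106) and adam10b (-1.46, 0.0568) did not, nor did adam17a (1.08, 0.161) and adam10b (-1.10, 0.277) without tumour 1314. With library totals adam10b was -0.31 (edgeR adjusted p = 0.594).

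In the nuclear complex 5 of 20 tested genes rose and 0 fell (25% and 0%, against 13.0% and 9.40% of all tested genes, median 0.75). They included both copies of the DNA-binding partner, rbpjb (1.27 ± 0.36, edgeR adjusted p = 0.0139) and rbpja (1.15 ± 0.39, 0.0345). rbpjb was present at 14.7, 36.5 and 26.0 CPM in SP and at 4.79, 16.4 and 12.5 CPM in nonSP. The Groucho-type corepressor genes tle3a and tle3b rose by 1.41 ± 0.39 and 1.34 ± 0.40 (edgeR adjusted p = 0.0125 and 0.0202), and kat2b, an acetyltransferase gene, by 1.34 ± 0.48 (0.0459). kat2b was higher in SP in 2 of 3 tumours, with SP levels of 11.1, 4.47 and 11.8 CPM, against nonSP levels of 12.6, 1.47 and 1.88 CPM. rbpja and kat2b were named after their values were seen, to complete the count. In edgeR without tumour 1404, rbpjb (0.99, adjusted p = 0.0508), rbpja (0.64, 0.227), tle3a (0.98, 0.0524) and tle3b (0.80, 0.118) did not pass. Without tumour 1279, rbpjb (1.35, 0.0673), rbpja (1.21, 0.116) and kat2b (1.22, 0.195) did not, and without tumour 1314, rbpjb (1.39, 0.0535), tle3a (1.42, 0.0716), tle3b (1.41, 0.0894) and kat2b (0.65, 0.473) did not. kat2b was at 2.06 without tumour 1404, and with RLE factors rbpja (1.07, 0.0547) and kat2b (1.26, 0.0679) also missed the threshold, as did kat2b with upper-quartile factors (1.28, 0.0683).

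Of 16 tested regulators of receptor turnover and feedback, 4 rose and 1 fell (25% and 6.25%, against 13.0% and 9.40% of all tested genes). numb, whose protein restrains Notch by endocytosis, rose by 1.53 ± 0.43 (edgeR adjusted p = 0.0145), the Deltex gene dtx2 by 1.28 ± 0.38 (0.0175), and the endocytic kinase gene aak1a by 1.63 ± 0.53 (0.0282). With nonSP counts of 26, 14 and 9, aak1a had too few to be tested without its SP counts. cdk8, for a kinase that marks the receptor's inner part for destruction, rose by 1.32 ± 0.43 (0.0282). nrarpa, a feedback inhibitor gene that Notch itself activates, was lower in SP, at 18.8, 4.15 and 0.261 CPM against 36.0, 7.79 and 0.794 CPM in nonSP (-1.11 ± 0.38, edgeR adjusted p = 0.0378). It was at -0.05 with library totals, and it missed the threshold with no filter (0.0587) and in limma voom (0.0514). cdk8 and nrarpa were named after their values were seen. In edgeR without tumour 1404, numb (1.17, adjusted p = 0.0767), aak1a (1.45, 0.111) and cdk8 (0.60, 0.309) did not pass. Without tumour 1279, dtx2 (1.23, 0.104), aak1a (1.83, 0.0734), cdk8 (1.61, 0.0636) and nrarpa (-1.21, 0.115) did not, and without tumour 1314, numb (1.34, 0.0922), dtx2 (1.17, 0.111), aak1a (1.52, 0.130) and nrarpa (-0.92, 0.234) did not.

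Many hairy and enhancer-of-split genes encode repressors that tissues switch on in response to Notch, but not every member of the family is such a target. Whether those named below respond to Notch in these cells was not tested. Of 25 listed, 10 were tested, of which 3 were lower in SP and 0 higher (30% lower, against 9.40% of all tested genes, median -0.84). her6 was present at 0.445, 5.95 and 0.772 CPM in SP and at 1.62, 36.3 and 3.75 CPM in nonSP, hes6 at 9.84, 3.16 and 2.48 CPM in SP and at 22.9, 33.4 and 7.04 CPM in nonSP. hey1 was present at 6.83, 3.36 and 0.261 CPM in SP and at 13.2, 10.1 and 2.43 CPM in nonSP. Each was lower in SP in all 3 tumours, with log2 fold changes of -2.27 ± 0.40, -2.01 ± 0.43 and -1.84 ± 0.45 (edgeR adjusted p = 0.000404, 0.00223 and 0.00532). With library totals her6 still passed (-1.18, edgeR adjusted p = 0.0223) and the others did not (hes6 -0.95, 0.0550; hey1 -0.77, 0.159). hes6 also missed the threshold without tumour 1279 (-1.34, 0.0735) and hey1 without tumour 1314 (-1.26, 0.0821). her9, another repressor gene of this family, stood at -0.02 ± 0.39 (edgeR adjusted p = 0.980) and was named after its value was seen. Copies of her4 and her15 are near-identical, and their few reads may be split among them.

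Of 13 tested genes that are Notch targets in mammalian lymphoid cells, 1 rose and 0 fell (7.69% and 0%, against 13.0% and 9.40% of all tested genes, median 0.26). It was nfkb2, an NF-kB subunit gene, at 1.78 ± 0.43 (edgeR adjusted p = 0.00544), and it passed without each tumour in turn, at 1.13 to 2.36. gata3, a T lineage transcription factor gene, stood at 0.94 ± 0.38 (edgeR adjusted p = 0.0733) and was present at 7.80, 88.5 and 1.26 CPM in SP and at 3.50, 65.3 and 0.507 CPM in nonSP. myca, a MYC counterpart, did not pass (-1.13 ± 0.43, edgeR adjusted p = 0.0585). It passed in 5 of 11 alternatives: in edgeR without tumour 1404 (-1.85, adjusted p = 8.75e-05) and with upper-quartile factors or the stricter filter, in DESeq2 (-1.21, 0.0284) and in limma voom (-1.29, 0.0151). In tumour 1404 myca was higher in SP, at 72.4 against 65.1 CPM in nonSP. Its log2 fold changes under the alternatives ranged from -1.85 to -0.04. mycb, another MYC counterpart on the list, did not pass (-0.69 ± 0.37, edgeR adjusted p = 0.177) and was named after its value was seen. It was present at 33.7, 19.9 and 7.75 CPM in SP and at 36.5, 36.8 and 16.2 CPM in nonSP. The interleukin receptor gene il7r had counts of 7, 1619 and 3 in SP against 0, 339 and 1 in nonSP and was not tested.

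**Figure D5:**
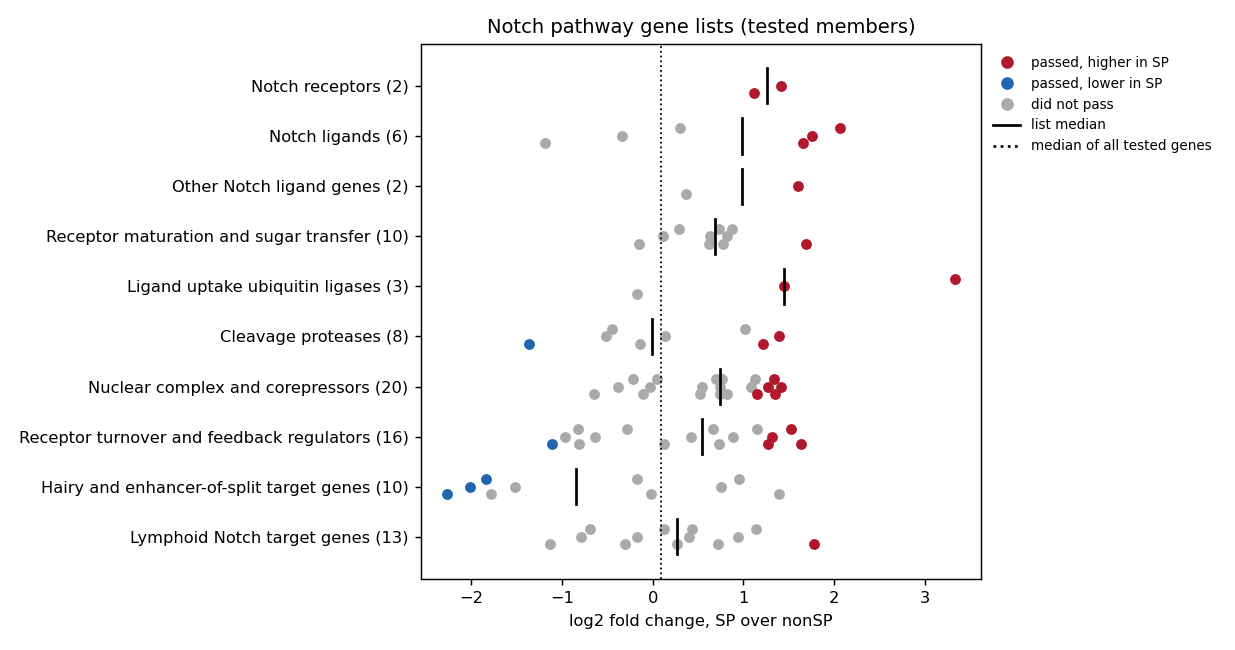
Log2 fold change (SP over nonSP) of each tested gene in the receptor and ligand lists and in 8 further pathway lists, with the number tested in brackets, list medians as bars and the median of all tested genes as a dotted line. The list of hairy and enhancer-of-split genes has its median at -0.84, and the other lists have medians from -0.00 to 1.44.

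Some genes outside the pathway had nearly the same pattern over the 6 libraries as the members that rose. Likeness was the root-mean-square difference of centred log2 CPM, over tested genes with an average log2 CPM of at least 3. It covers differences between tumours as well as between fractions. The 3 closest of 5355 or 5356 candidates are given for each member, and some closeness follows from so wide a search. For notch2 it was 0.11 with prex1, a Rac exchange factor gene, 0.13 with rnf111, a ubiquitin ligase gene, and 0.14 with ATP13A3. For jag1a it was 0.19 with galnt2, a glycosyltransferase gene, 0.19 with nfatc4 and 0.25 with eif2ak3, a stress kinase gene. For notch1a it was 0.23 with cd81a, a tetraspanin gene, 0.26 with rasa3 and 0.30 with slc16a3, a lactate transporter gene. None of these 3 passed between the fractions (edgeR adjusted p = 0.142, 0.0961 and 0.0515). Matches were less close for jag1b (tfe3a, slc25a15b and eif5b at 0.44 to 0.50) and dlb (hdac4, nfe2l2b and nova2 at 0.54 to 0.58), which have fewer counts. Of these eif5b did not pass between the fractions (edgeR adjusted p = 0.0718).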

How the data were processed

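The authors deposited raw counts per gene symbol, 1 table per library, for 6 libraries. The submitters' processing notes list build GRCz10 and, with no roles, edgeR 3.20.7, DESeq 1.30.0, STAR 2.5.1b, featureCounts 1.28.1 and Cufflinks 2.2.1. Annotation release and strand setting were not given in the sources used here. Per the labels' protocols, tumours were sorted by flow cytometry and RNA was extracted with Trizol. Groups and tumour numbers came from the sample titles. The design text compares the fractions within tumours, so tumour was a block. As a check of the pairing, each library's log2 deviations from its fraction's mean were compared: SP and nonSP of 1 tumour correlated over genes at 0.753 (1404), 0.839 (1279) and 0.818 (1314), libraries of different tumours at -0.485 to -0.274. With the mean taken out, positive values within tumours make those between tumours negative on balance, so the negative sign is no separate result. Whether the tumours arose independently is not stated, so p-values concern these 3 pairs.

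Differences were fitted to these counts with edgeR 4.0.16 in R 4.3.3 (filterByExpr by group, minimum count 10, minimum total 15; TMM; robust glmQLFit and glmQLFTest; Benjamini-Hochberg at 0.05), which tested 15770 genes holding at least 99.8% of each library. Each SE is the size of the log2 fold change over the root of its F value, and leans on the variance shared among genes (23.2 prior degrees of freedom). The filter asks for enough counts in as many libraries as 1 group holds, so a gene can enter through 1 fraction alone. Ratios per tumour use log2 CPM with a prior count of 2. Alternatives were DESeq2 1.42.0, limma 3.58.1 (voom with sample weights), other factors and filters, no block and each tumour left out. On simulated data of 15320 genes, 63, 66 and 64 genes were changed 1.5-fold, 2-fold and 4-fold. Of these 0%, 1.52% and 64.1% were recovered, and 4 of 46 calls were false. Far fewer genes changed there than the 22.4% called in the data, which makes the adjusted threshold stricter. The rates therefore do not give the power of the real comparison.

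All members, and up to 3 genes with the lowest p of each pathway list, are named by rule; others are marked where named. Members and lists were chosen with earlier results of these data known. Marker lists covered 9 cell types. Of the 10 symbols all matched the RefSeq table (assembly GRCz12tu), used for gene neighbours only. Its coordinates were used to find genes that overlap the members, and no other coordinates or sequences were used here. CPM do not correct for gene length, so levels are compared between libraries, not between genes.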

Additional observations from a re-analysis of the deposited data

How the results depend on the processing

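The count of all genes called moved from 3530 (58.0% of them higher) to 8292 with library totals (96.7% higher) and 1952 with the stricter filter, which tests 6090 genes; without each tumour in turn it was 1849 to 2932. The count of receptor and ligand genes called moved from 5 to 3 with the stricter filter, where 4 were tested, and to 1 to 4 without each tumour in turn. Pathway genes called moved from 21 to 53 with library totals, and to 9 to 16 without each tumour in turn. With no replicate block, that is without the pairing by tumour, each of these counts was 0 in edgeR. The stricter filter asked for 10 counts in at least 3 libraries and an average log2 CPM of 3. Log2 fold changes that changed sign were those of genes that did not pass. Without each tumour in turn dlc ranged from -0.30 to 0.61, dll4 from -1.72 to 0.54, dld from -0.0097 to 0.68 and mib1 from -0.55 to 0.11. dll4 was 0.70 with library totals, below the median of all genes there, and 0.78 with no replicate block, and mib1 was 0.91 with library totals. The cause was not tested, except that library totals raised all genes together. Of the values of the 8 tested members under alternatives, 65 kept direction and side of the threshold, 13 lost the call, 1 gained it and 5 changed sign; for the named pathway genes these numbers were 205, 68, 9 and 3. Among the 10 mean share differences, those of notch1a (1.48 percentage points) and notch2 (-1.26) changed sign without tumour 1314 and that of notch3 (0.126) without tumour 1279. Genes with few counts, such as dlb, dll4 and notch3, carry the most counting error.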
